A study of Mus musculus with 9 samples.

Results

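Complement, coagulation and fibrinolysis are cascades of plasma proteases whose parts are also transcribed outside the liver, and 44 of their genes were followed by diet in mouse periprostatic fat, which surrounds the prostate. The members were listed by symbol and taken from rows of the expression table whose probe set has exactly 1 gene symbol. With 1 probe set each, 41 of the 44 were measured, out of 22180 genes in all, and C3, F2rl1 and Cpb2 were not analysed here. Tissue came from 9 male C57BL/6J mice. In the high fat group of 5 mice, fat supplied 60 percent of dietary calories, and in the low fat group of 4 mice it supplied 10 percent. Both diets ran from 6 weeks of age for 12 weeks up to harvest at 18 weeks, and the labels give each array (Affymetrix Mouse Gene 2.0 ST) a mouse of its own. Values are log2 expression from the authors' processed table, in which 1 unit is a doubling.

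Complement starts when C1q binds antibody or debris and activates the proteases C1r and C1s, when mannose-binding lectin activates the MASP proteases, or through the alternative pathway with factor B and properdin. The routes meet at cleavage of C3 by convertases built from C4b and C2 or from C3b and factor B, which releases anaphylatoxins that myeloid cells sense and leads to the membrane attack complex. Clotting starts when tissue factor binds factor VII, activates factor X and generates thrombin, which cleaves fibrinogen and also signals through protease-activated receptors. Thrombomodulin, protein S and tissue factor pathway inhibitor restrain it, and plasmin, made by the plasminogen activators, dissolves fibrin. In adipose tissue, macrophages, mesothelial cells, fibroblasts, endothelial cells and adipocytes are known to transcribe parts of these systems, while many clotting factors are made chiefly by hepatocytes.

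Promoter windows of a few members are shown because these genes lie beside each other in the genome or moved with diet: C1qb and C1qc, which rose together, C3ar1, Plaur and F2r, which rose and hold an AP-1 word, and F7 with its neighbour F10, of which F7 alone passed the test. Each is the 250 bases before the annotated start, 5′ to 3′ on the gene's strand, from RefSeq on GRCm38.p6. Capitals mark every match, on either strand, to the PU.1 core GAGGAA, the AP-1 word TGANTCA, the C/EBP word TTGCNNAA, the E-box CACGTG or the Sp1 word GGGCGG. Overlapping matches run together.
C1qb (chr4:136886201-136886450, minus strand): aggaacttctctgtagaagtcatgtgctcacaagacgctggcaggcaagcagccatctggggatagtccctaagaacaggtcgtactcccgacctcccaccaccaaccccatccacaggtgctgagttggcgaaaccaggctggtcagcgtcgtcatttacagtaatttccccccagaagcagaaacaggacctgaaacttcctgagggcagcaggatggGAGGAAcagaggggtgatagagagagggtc
C1qc (chr4:136892915-136893164, minus strand): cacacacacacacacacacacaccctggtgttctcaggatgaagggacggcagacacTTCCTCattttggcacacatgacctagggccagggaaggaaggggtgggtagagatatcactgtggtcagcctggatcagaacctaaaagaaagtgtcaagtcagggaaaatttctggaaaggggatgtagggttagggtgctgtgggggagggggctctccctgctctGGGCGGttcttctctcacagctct
C3ar1 (chr6:122856158-122856407, minus strand): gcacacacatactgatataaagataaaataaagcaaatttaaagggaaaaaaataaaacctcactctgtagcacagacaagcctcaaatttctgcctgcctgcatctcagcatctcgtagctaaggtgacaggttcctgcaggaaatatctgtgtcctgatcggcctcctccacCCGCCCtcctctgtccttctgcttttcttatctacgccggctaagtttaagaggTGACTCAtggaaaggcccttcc
Plaur (chr7:24462233-24462482, plus strand): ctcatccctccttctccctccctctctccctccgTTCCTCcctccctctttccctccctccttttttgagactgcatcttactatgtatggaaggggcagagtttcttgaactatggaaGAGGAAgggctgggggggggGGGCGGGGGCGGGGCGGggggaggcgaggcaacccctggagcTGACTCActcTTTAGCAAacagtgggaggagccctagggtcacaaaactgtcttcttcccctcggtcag
F2r (chr13:95618467-95618716, minus strand): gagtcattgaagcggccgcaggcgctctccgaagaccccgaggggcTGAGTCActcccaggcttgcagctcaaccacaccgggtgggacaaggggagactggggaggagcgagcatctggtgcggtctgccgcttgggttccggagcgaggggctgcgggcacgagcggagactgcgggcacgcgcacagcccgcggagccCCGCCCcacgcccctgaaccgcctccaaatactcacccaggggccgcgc
F7 (chr8:13025784-13026033, plus strand): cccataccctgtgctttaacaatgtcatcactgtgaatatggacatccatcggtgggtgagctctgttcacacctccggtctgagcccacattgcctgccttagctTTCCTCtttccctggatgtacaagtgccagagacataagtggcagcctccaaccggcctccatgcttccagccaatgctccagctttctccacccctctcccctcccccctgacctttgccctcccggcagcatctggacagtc
F10 (chr8:13037058-13037307, plus strand): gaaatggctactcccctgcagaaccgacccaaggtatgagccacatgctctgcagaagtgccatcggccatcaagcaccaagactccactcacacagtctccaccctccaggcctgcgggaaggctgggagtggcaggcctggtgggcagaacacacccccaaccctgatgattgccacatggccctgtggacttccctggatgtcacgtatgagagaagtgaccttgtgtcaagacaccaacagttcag

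The C1qb and C1qc windows each hold the PU.1 core once, at 30 to 25 bases before the start in C1qb and at 193 to 188 in C1qc. An AP-1 word ends 16 bases before the start in C3ar1, 63 bases before it in Plaur and 198 bases before it in F2r. The F7 window holds 1 PU.1 core and the F10 window none of the 5 words. RefSeq windows were matched for 31 of the 41 measured members (37 windows, since some genes have several starts), and C1qa, C2, Cfb and Thbd are among the members without one. The AP-1 word was in a window of 8 of these 31 genes. Of them C3ar1, F2r, F2rl2, Plaur and Tfpi2 rose, and C8g, F2 and Procr did not pass, where 18 of the 41 measured members rose. The C3ar1, Plaur and F2r windows were picked because these genes rose and hold the word. A link between the word and diet was not tested. Over all 32851 windows of this length 6.75% held the AP-1 word, and 21.6% of the 37 member windows did. For the PU.1 core the shares were 27.0% of member windows and 23.3% of all windows, for the C/EBP word 16.2% and 9.56%, and for the Sp1 word 27.0% and 32.7%. The E-box was in none of the member windows and in 6.02% of all. These matches describe the letters only.

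Diet was tested with limma on the 22180 genes, with p-values adjusted over all of them by Benjamini-Hochberg, and a gene is said to have risen or fallen where the adjusted p was under 0.05. Errors of differences are moderated standard errors (SE), and a fold is the power of 2 of a difference. Of the 41 measured members, 18 rose and 6 fell in high fat diet. In the background, 12.4% of all genes rose and 9.13% fell (21.5% in either direction). The share of members that rose lies above that share, but the background is not matched for brightness. Only 6 of the 41 had means under the median of all values (6.49). With dim genes (mean not above the median gene mean) left out, 2548 genes and 16 members rose, and 1932 genes and 6 members fell. These counts come from fewer genes and fewer members, with Masp1, Mbl2, Cfi and F2rl2 among the members left out. Larger shares of the genes kept rose and fell than the 12.4% and 9.13% of all genes, so the 16 members are not comparable with those shares. The members were chosen with earlier results of these data known. Every high fat mouse lay above every low fat mouse in 16 members, against 11.6% of all genes, and below in 5, against 9.15% (20.7% in either direction). The median difference was 0.24 over the members and -0.0011 over all genes. Without high fat mice 1 and 2, 15 members rose and 3 fell, the calls of C2, F8 and Masp1 being lost among the latter. The split of all genes called depended on scaling, with 57.5% of them higher as deposited, 45.6% with quantile normalization repeated and 42.2% with arrays centred on their medians. Under those scalings 16 and 15 members rose and 7 fell in each.

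**Figure D1:**
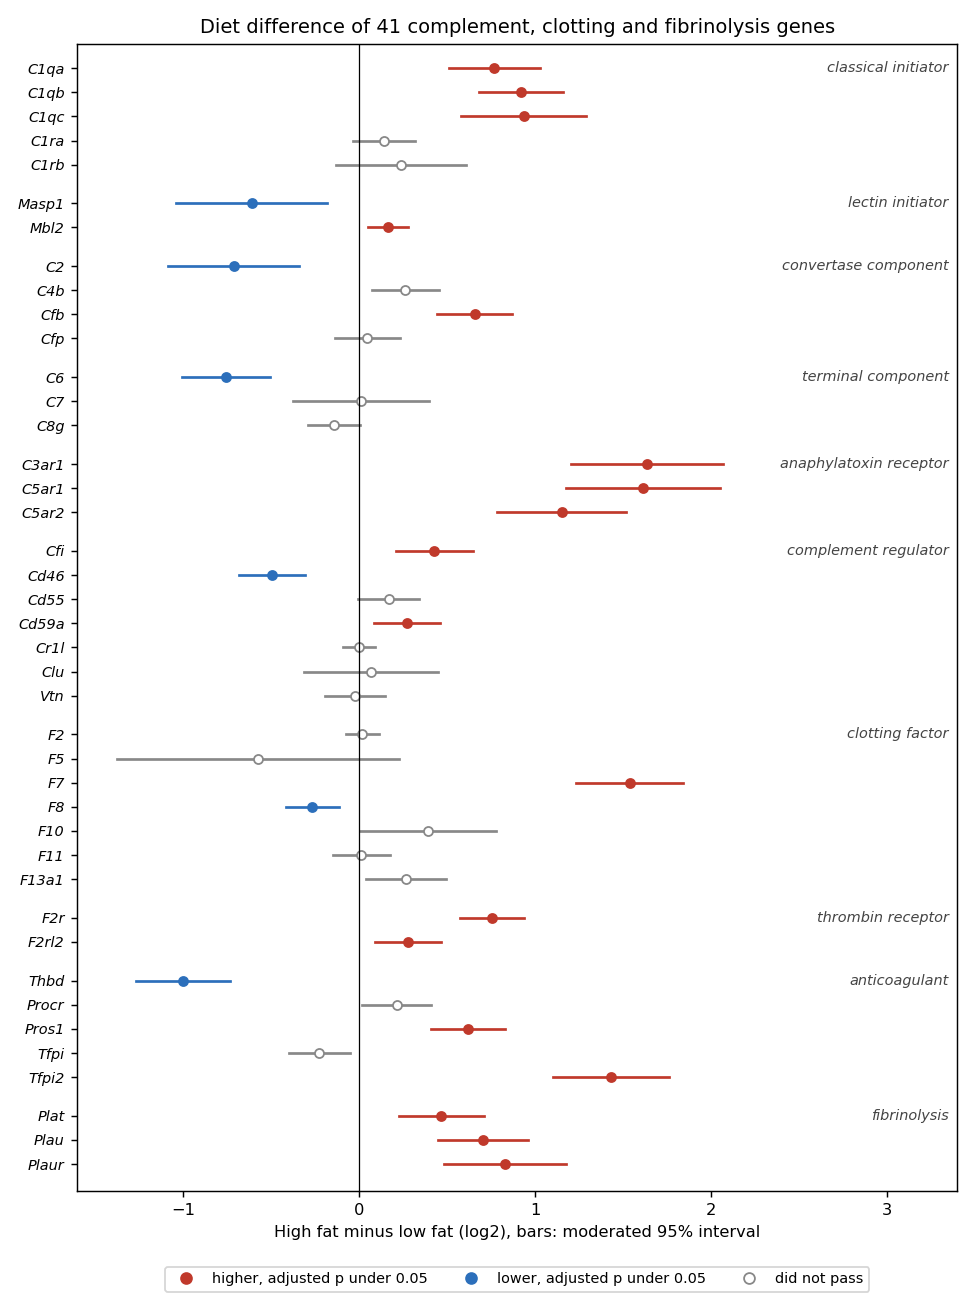
Diet differences of the 41 measured members in log2 units on the x axis (high fat minus low fat), grouped by role on the y axis; points are fitted differences, bars their moderated 95% intervals, and filled points passed an adjusted p of 0.05. The anaphylatoxin receptors, F7 and Tfpi2 lie farthest to the right and Thbd farthest to the left among filled points.

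Cell markers shifted with diet in this bulk tissue, in which fewer cells of a type and less RNA per cell cannot be told apart. All 8 macrophage markers rose, with a list mean of 10.999 to 11.54 in high fat mice and 10.01 to 10.35 in low fat mice. Fibroblast markers rose in 5 of 7 (list mean 11.47 to 11.85 against 10.63 to 10.97) and adipocyte markers fell in 6 of 7 (11.97 to 12.15 against 12.44 to 12.54). Of 7 measured hepatocyte markers, Alb fell by 2.01 log2 units, from a mean of 9.18 in low fat to 7.17 in high fat mice. The other differences lay between -0.31 (Serpina1a, which did not pass) and 0.21 (Ttr, which rose). The list mean was 6.29 to 6.38 in high fat mice and 6.58 to 6.67 in low fat mice, close to the median of all values (6.49). Smooth muscle markers stood at 10.91 in low fat mouse 2 and at 8.27 to 8.67 in all other mice. Skeletal muscle markers stood at 8.42 in high fat mouse 1, 7.10 in low fat mouse 4 and 6.07 to 6.24 in the rest.

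C1q, the recognition molecule of the classical pathway, rose in all of its chains. C1qb was at 12.52, 12.65, 12.76, 12.24 and 12.44 in high fat mice 1 to 5 and at 11.70, 11.67, 11.65 and 11.38 in low fat mice 1 to 4. The groups did not overlap, high fat mouse 3 was the highest and low fat mouse 4 the lowest. The rise of C1qb was 1.89-fold (log2 difference 0.92 ± 0.11 SE, limma adjusted p = 0.000307). C1qa stood at 10.10, 10.12, 10.32, 9.80 and 10.08 in high fat mice 1 to 5 and at 9.51, 9.38, 9.35 and 9.01 in low fat mice 1 to 4, a 1.70-fold rise. C1qc stood at 10.33, 10.57, 10.87, 10.03 and 10.30 in high fat mice 1 to 5 and at 9.70, 9.54, 9.50 and 9.19 in low fat mice 1 to 4, a 1.91-fold rise. The 3 genes are direct neighbours on chromosome 4. In each of them high fat mouse 3 was highest and high fat mouse 4 lowest of that diet, as for the macrophage receptor gene Adgre1. In low fat mice the ends differed from those of Adgre1, which was highest in mouse 3 (10.34) and lowest in mouse 2 (9.98). There C1q was highest in mouse 1 and lowest in mouse 4, as was the macrophage list mean (10.35 and 10.01). The macrophage markers rose beside C1q, and their part in the result was not tested.

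C1ra and C1rb, which encode forms of the protease C1r that C1q activates, did not pass the test. C1ra differed by 0.14 ± 0.079 (SE, 95% interval -0.032 to 0.32, limma adjusted p = 0.243) and C1rb by 0.24 ± 0.17 (SE, 95% interval -0.13 to 0.61, limma adjusted p = 0.366). High fat mouse 5 was the highest for both, and for C1rb it stood at 7.52, while the remaining high fat mice lay between 6.73 and 6.83. Without that mouse the difference was 0.095 for C1ra (limma adjusted p = 0.408) and 0.089 for C1rb (limma adjusted p = 0.577). C1ra and C1rb are similar copies whose probes can share signal, so which of them a value belongs to is uncertain. Whether C1q changed more than C1r was tested on the ratio within each array: the log2 ratio of C1qb to C1ra was 4.18 to 4.91 in high fat mice and 3.55 to 3.85 in low fat mice, a shift of 0.77 (two-sided exact permutation p = 0.0159, the smallest that 126 assignments can give).

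Such ratios were computed for 7 pairs chosen after their values were seen, with an adjusted p of 0.0223 for the C1qb to C1ra ratio. Neither the permutation p nor its adjustment over the 7 pairs covers that choice, here or for the ratios below. A ratio within an array shows unequal change, not which gene moved.

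Both lectin pathway members had means under the median of all values. Outside the members, the ficolin gene Fcna of this pathway had means of 8.84 in high fat and 8.68 in low fat mice and did not pass (limma adjusted p = 0.343). Masp1, the MASP protease gene, was at 6.11, 5.93, 6.27, 6.02 and 6.25 in high fat mice 1 to 5 and at 6.48, 7.39, 6.27 and 6.76 in low fat mice 1 to 4. Low fat mouse 2, the array with high smooth muscle markers, was the highest, and the groups met at 6.27. Masp1 was 1.53-fold lower (log2 difference -0.61 ± 0.19 SE, limma adjusted p = 0.0485), and without low fat mouse 2 the difference was -0.39 (limma adjusted p = 0.0492). The call was lost in 10 of 17 alternatives (adjusted p up to 0.19), including without any 1 of the high fat mice, low fat mouse 1 or low fat mouse 4. The mannose-binding lectin gene Mbl2 was 1.12-fold higher, at 5.91, 6.02, 6.08, 6.03 and 6.06 in high fat mice 1 to 5 and at 5.89, 5.75, 5.94 and 5.83 in low fat mice 1 to 4, with overlapping groups. Its limma adjusted p was 0.0481 and the call was lost in 13 of 17 alternatives, among them arrays centred on their medians (adjusted p = 0.134) and leaving out any 1 mouse other than high fat mouse 1 or low fat mouse 3. Mbl2 lay under the level below which 95% of 1088 olfactory receptor genes lie (6.30), so whether its values exceed background was not determined. All high fat values of Masp1 and its value in low fat mouse 3 lay under this level too. The fold of Masp1 therefore holds only for the values as deposited.

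Among convertase components, factor B and C2 went in opposite directions. They are homologous proteases, factor B of the alternative and C2 of the classical and lectin convertase, and their genes are direct neighbours on chromosome 17. Cfb was at 10.86, 10.90, 10.51, 10.94 and 10.86 in high fat mice 1 to 5 and at 10.33, 10.18, 10.12 and 9.998 in low fat mice 1 to 4. The groups did not overlap, and high fat mouse 3, the lowest of its group, stood apart from the other high fat mice. Cfb rose 1.58-fold (log2 difference 0.66 ± 0.095 SE, limma adjusted p = 0.000977).

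C2 was at 9.23, 9.54, 8.93, 9.37 and 9.83 in high fat mice 1 to 5 and at 10.18, 10.32, 10.02 and 9.83 in low fat mice 1 to 4. The groups came within rounding of each other, high fat mouse 5 at 9.83 just under low fat mouse 4. C2 fell 1.64-fold (log2 difference -0.71 ± 0.17 SE, limma adjusted p = 0.013), and without high fat mice 1 and 2 it no longer passed (-0.71, limma adjusted p = 0.0577). The log2 ratio of Cfb to C2 was 1.03 to 1.63 in high fat mice and -0.14 to 0.17 in low fat mice, a shift of 1.37 (two-sided exact permutation p = 0.0159, adjusted p = 0.0223 over 7 pairs).

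C4b, the partner of C2 in the classical convertase, was at 11.81, 11.87, 11.75, 11.96 and 11.94 in high fat mice 1 to 5 and at 11.61, 11.72, 11.76 and 11.34 in low fat mice 1 to 4, a difference of 0.26 ± 0.085 (SE) that missed the threshold (limma adjusted p = 0.0529). It passed with dim genes left out (adjusted p = 0.0334), with a trended robust variance (adjusted p = 0.046) and without low fat mouse 3 (adjusted p = 0.0371), and without low fat mouse 4 the difference was 0.17 (adjusted p = 0.0883). Its probes may share signal with the near-identical C4a. Properdin, which stabilises the alternative convertase, is encoded by Cfp, and its difference was 0.048 ± 0.084 (SE, 95% interval -0.14 to 0.24, limma adjusted p = 0.744).

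**Figure D2:**
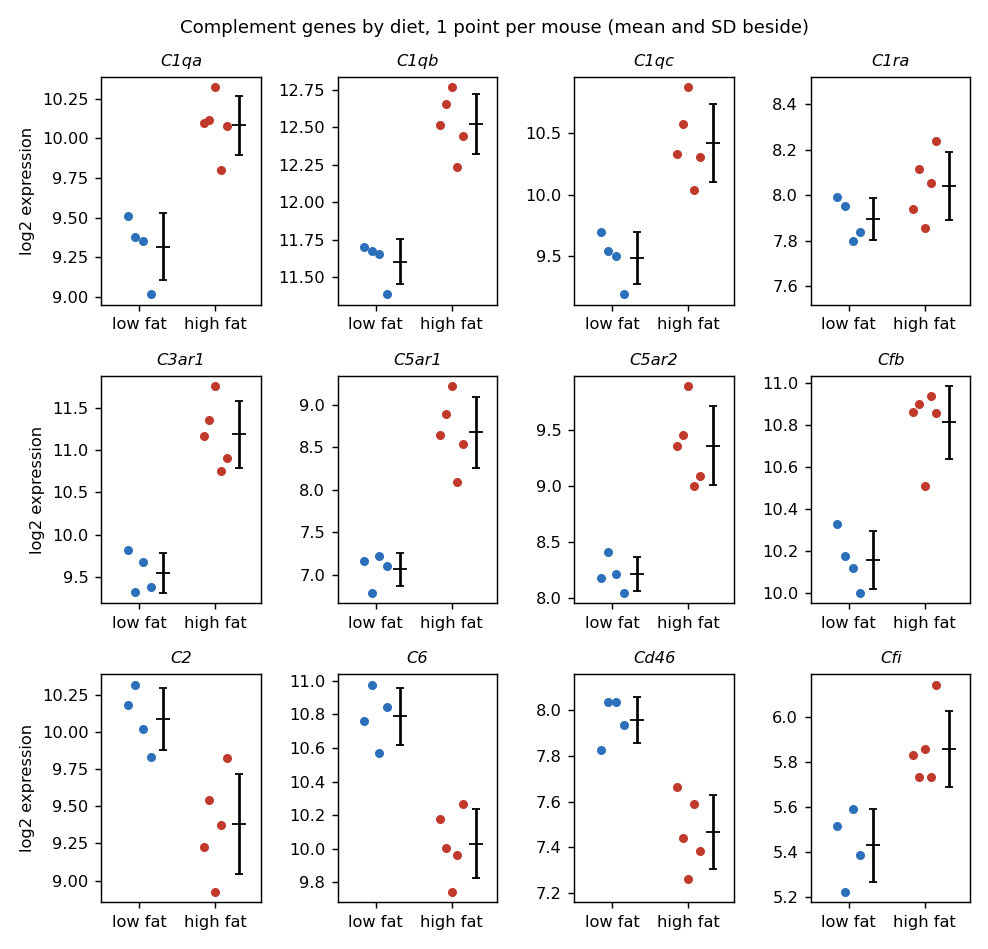
Log2 expression (y axes, each panel with its own range) of 12 complement genes in low fat (blue) and high fat (red) mice, 1 point per mouse, with the group mean and SD as a bar beside the points. C1q chains, C3ar1, C5ar1, C5ar2 and Cfb sit higher in high fat mice without overlap, C2, C6 and Cd46 lower, Cfi higher at low values, and C1ra overlaps.

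Of the terminal components, which assemble the membrane attack complex, C6 fell. It was at 10.18, 10.01, 9.75, 9.96 and 10.27 in high fat mice 1 to 5 and at 10.76, 10.98, 10.57 and 10.84 in low fat mice 1 to 4. Every high fat mouse lay under every low fat mouse, and the fall was 1.69-fold (log2 difference -0.76 ± 0.11 SE, limma adjusted p = 0.00108). C7, which joins the complex after C6, was at 10.40, 10.89, 10.67, 10.42 and 11.02 in high fat mice 1 to 5 and at 10.64, 10.95, 10.86 and 10.22 in low fat mice 1 to 4. Its groups overlapped over nearly their whole range, and the difference was 0.013 ± 0.17 (SE, 95% interval -0.37 to 0.40, limma adjusted p = 0.972). The log2 ratio of C7 to C6 shifted by 0.77 (two-sided exact permutation p = 0.0317, adjusted p = 0.037 over 7 pairs), and its ranges overlapped, at 0.23 to 0.92 in high fat mice and -0.63 to 0.30 in low fat mice. C8g, the gamma chain of C8, differed by -0.14 ± 0.066 (SE, 95% interval -0.29 to 0.0039, limma adjusted p = 0.164).

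C7 and the mesothelial markers shared some ends of their ranges within a diet but not others. High fat mouse 5 was highest for C7 and for the mesothelial list mean (9.78, the others of that diet 8.43 to 9.38), and low fat mouse 4 was lowest for both (7.93, the others 8.45 to 9.08). At the low end of the high fat group they differed, with C7 lowest in mouse 1 (10.40) and the mesothelial mean lowest in mouse 3 (8.43), where C7 was 10.67. None of the 7 mesothelial markers passed the limma test for diet, and their part in the values of C7 was not tested.

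The anaphylatoxin receptors, cell-surface receptors through which complement fragments draw and activate myeloid cells, rose by more than any other complement member. C3ar1, the receptor of C3a, was at 11.16, 11.35, 11.76, 10.75 and 10.91 in high fat mice 1 to 5 and at 9.82, 9.32, 9.68 and 9.38 in low fat mice 1 to 4. All high fat mice were above all low fat mice, and the distance between the groups (10.75 against 9.82) was larger than the range within the low fat group. C3ar1 rose 3.11-fold, a log2 difference of 1.64 ± 0.19 (SE, limma adjusted p = 0.000333).

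C5ar1, the signalling receptor of C5a, was at 8.64, 8.90, 9.22, 8.10 and 8.53 in high fat mice 1 to 5 and at 7.16, 6.78, 7.21 and 7.10 in low fat mice 1 to 4. It rose 3.06-fold (log2 difference 1.61 ± 0.20 SE, limma adjusted p = 0.000381). C5ar2, the second C5a receptor, which does not couple to G proteins, was at 9.36, 9.46, 9.89, 9.004 and 9.09 in high fat mice 1 to 5 and at 8.18, 8.41, 8.21 and 8.04 in low fat mice 1 to 4. It rose 2.22-fold (log2 difference 1.15 ± 0.16 SE, limma adjusted p = 0.000886). C5ar1 and C5ar2 are direct neighbours on chromosome 7. In all 3 receptor genes high fat mouse 3 was highest and high fat mouse 4 lowest, as for C1q and Adgre1, and the groups did not overlap in any of them. The macrophage list mean was likewise highest in high fat mouse 3 (11.54) and lowest of its group in high fat mouse 4 (10.999). In low fat mice the ends differed among the receptors. C5ar1 was highest in mouse 3 and lowest in mouse 2, as was Adgre1. C3ar1 was highest in mouse 1, and C5ar2 was highest in mouse 2 (8.41), where Adgre1 was lowest (9.98). The part of the macrophage markers in the rise was not tested. The 3 calls held in each of 18 alternatives, with log2 differences of 1.49 to 1.75 for C3ar1, 1.48 to 1.76 for C5ar1 and 1.02 to 1.24 for C5ar2.

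**Figure D3:**
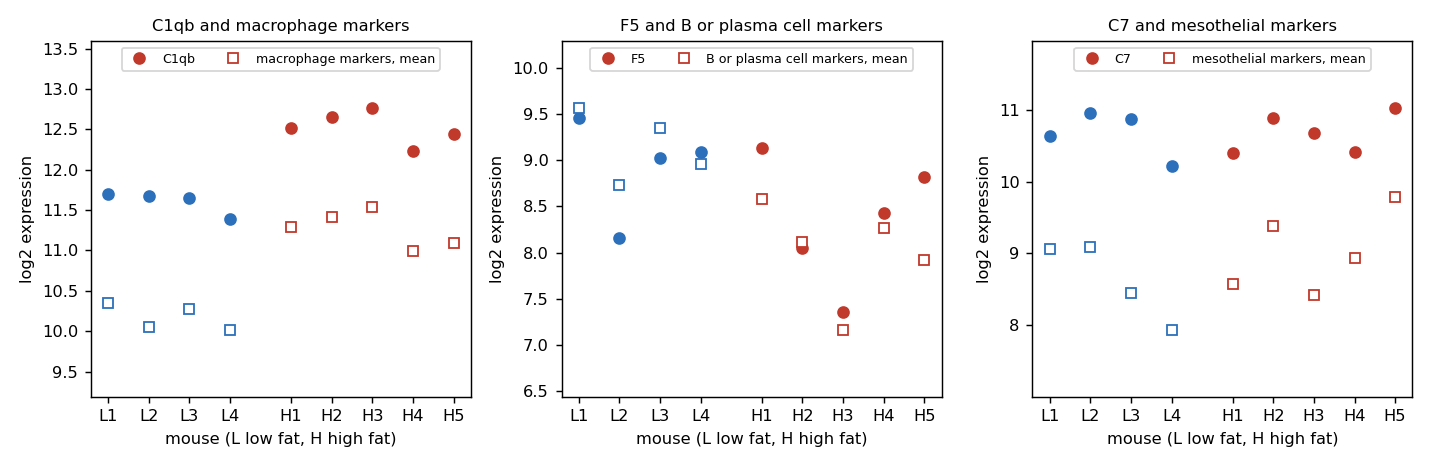
Log2 expression (y axis) by mouse (x axis, L low fat in blue and H high fat in red) of C1qb, F5 and C7 (filled circles) beside the mean of macrophage, B or plasma cell, and mesothelial markers (open squares). C1qb and the macrophage mean are higher in every high fat mouse, F5 and the B or plasma cell mean are both lowest in high fat mouse 3, and C7 and the mesothelial mean are both lowest in low fat mouse 4.

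Of 7 regulators that keep complement off host cells, 2 rose, 1 fell and 4 did not pass, where 12.4% of all genes rose and 9.13% fell. Cd46, a membrane cofactor for cleavage of C3b and C4b, was at 7.66, 7.44, 7.26, 7.59 and 7.38 in high fat mice 1 to 5 and at 7.83, 8.04, 8.04 and 7.94 in low fat mice 1 to 4. The groups did not overlap, and Cd46 fell 1.41-fold (log2 difference -0.49 ± 0.085 SE, limma adjusted p = 0.00249). Its direct neighbour on chromosome 1, Cr1l, which encodes the rodent cofactor Crry, had means of 9.48 in both groups and a difference of 0.0004 ± 0.04 (SE, 95% interval -0.089 to 0.089, limma adjusted p = 0.996).

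Cfi encodes factor I, the protease that these cofactors serve. It was at 5.83, 5.73, 5.86, 5.73 and 6.14 in high fat mice 1 to 5 and at 5.52, 5.22, 5.59 and 5.38 in low fat mice 1 to 4. It rose 1.35-fold (log2 difference 0.43 ± 0.10 SE, limma adjusted p = 0.0116) without overlap, but all its values lay under 6.30, the olfactory receptor level given for Mbl2, so the fold holds only for the values as deposited. Cd59a, an inhibitor of the membrane attack complex, was at 12.45, 12.42, 12.50, 12.57 and 12.46 in high fat mice 1 to 5 and at 12.31, 11.91, 12.35 and 12.24 in low fat mice 1 to 4. It was 1.21-fold higher (limma adjusted p = 0.0414) without overlap, and the call was lost in 10 of 18 alternatives (adjusted p up to 0.10), including without any 1 of the high fat mice or low fat mouse 4. Without low fat mouse 2, the lowest, the log2 difference of Cd59a went from 0.27 to 0.18 (limma adjusted p = 0.0329). Cd59a has a similar copy, Cd59b, with which its probes can share signal.

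Cd55, which speeds the decay of convertases, differed by 0.17 ± 0.078 (SE, 95% interval -0.0051 to 0.34, limma adjusted p = 0.165). Clu, the gene of the fluid-phase inhibitor clusterin, differed by 0.07 ± 0.17 (SE, 95% interval -0.31 to 0.45). Vtn, which encodes vitronectin, differed by -0.023 ± 0.076 (SE, 95% interval -0.19 to 0.15). Limma adjusted p was 0.825 for Clu and 0.872 for Vtn. Clu spread widely among high fat mice, from 8.61 in mouse 3 to 9.50 in mouse 5.

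Among clotting factors, F7, the protease that tissue factor binds to start clotting, had the largest change. F7 was at 9.64, 9.46, 9.37, 9.05 and 9.22 in high fat mice 1 to 5 and at 8.08, 7.502, 7.77 and 7.88 in low fat mice 1 to 4. The lowest high fat mouse (9.05) stood above the highest low fat mouse (8.08) by more than the range of either group. The rise was 2.90-fold (log2 difference 1.54 ± 0.14 SE, limma adjusted p = 9.15e-05), and its difference lay between 1.40 and 1.63 in 18 alternatives.

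F10, the next enzyme of the cascade and the direct neighbour of F7 on chromosome 8, was at 8.56, 8.17, 8.02, 8.25 and 8.33 in high fat mice 1 to 5 and at 8.27, 7.32, 7.95 and 7.95 in low fat mice 1 to 4. The groups overlapped, since low fat mouse 1 lay above 3 high fat mice and low fat mouse 2 was far below the rest. Its difference of 0.39 ± 0.17 (SE, 95% interval 0.0067 to 0.78) missed the threshold (limma adjusted p = 0.146), and without low fat mouse 2 it was 0.21 (limma adjusted p = 0.295). The log2 ratio of F7 to F10 was 0.80 to 1.35 in high fat mice and -0.19 to 0.18 in low fat mice, a shift of 1.15 (two-sided exact permutation p = 0.0159, adjusted p = 0.0223 over 7 pairs).

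F8, a cofactor for activation of factor X that is known to be made by endothelial cells, was at 7.37, 7.19, 7.31, 7.33 and 7.10 in high fat mice 1 to 5 and at 7.49, 7.65, 7.44 and 7.52 in low fat mice 1 to 4. It fell 1.20-fold without overlap (log2 difference -0.26 ± 0.067 SE, limma adjusted p = 0.0185). The call was lost without high fat mice 1 and 2 (adjusted p = 0.0511). Endothelial list means overlapped, at 9.94 to 10.13 in high fat mice and 9.98 to 10.17 in low fat mice, with Kdr lower and Vwf, whose protein carries factor VIII, higher.

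F5, the cofactor of factor X in making thrombin, had the widest spread of any member. It was at 9.13, 8.05, 7.36, 8.43 and 8.81 in high fat mice 1 to 5 and at 9.46, 8.16, 9.02 and 9.09 in low fat mice 1 to 4. The difference of -0.57 ± 0.36 (SE, 95% interval -1.38 to 0.23) did not pass (limma adjusted p = 0.314), and both groups covered more than 1 log2 unit. Without high fat mouse 3 the difference was -0.32 (limma adjusted p = 0.536). B or plasma cell markers moved with diet as well: Jchain and Mzb1 fell, Ms4a1 and Cd79a did not pass (limma adjusted p = 0.0503 and 0.102), and the mean of the 4 was 7.16 to 8.58 in high fat mice and 8.73 to 9.56 in low fat mice, without overlap. That mean was lowest in high fat mouse 3 (7.16) and highest in low fat mouse 1 (9.56), the mice in which F5 was also lowest (7.36) and highest (9.46). In each diet the lowest and the highest mouse were the same for F5 and for these markers. Their part in the spread of F5 was not tested.

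F13a1, which encodes the fibrin cross-linking subunit of factor XIII and is known from macrophages, differed by 0.27 ± 0.10 (SE, 95% interval 0.038 to 0.49, limma adjusted p = 0.0977). F2, the prothrombin gene, and F11, the factor XI gene, differed by 0.019 ± 0.042 and 0.014 ± 0.073 (SE). F2 values lay between 5.01 and 5.15 and F11 values between 5.29 and 5.60, all under the olfactory receptor level of 6.30, so whether either lies above background was not determined.

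**Figure D4:**
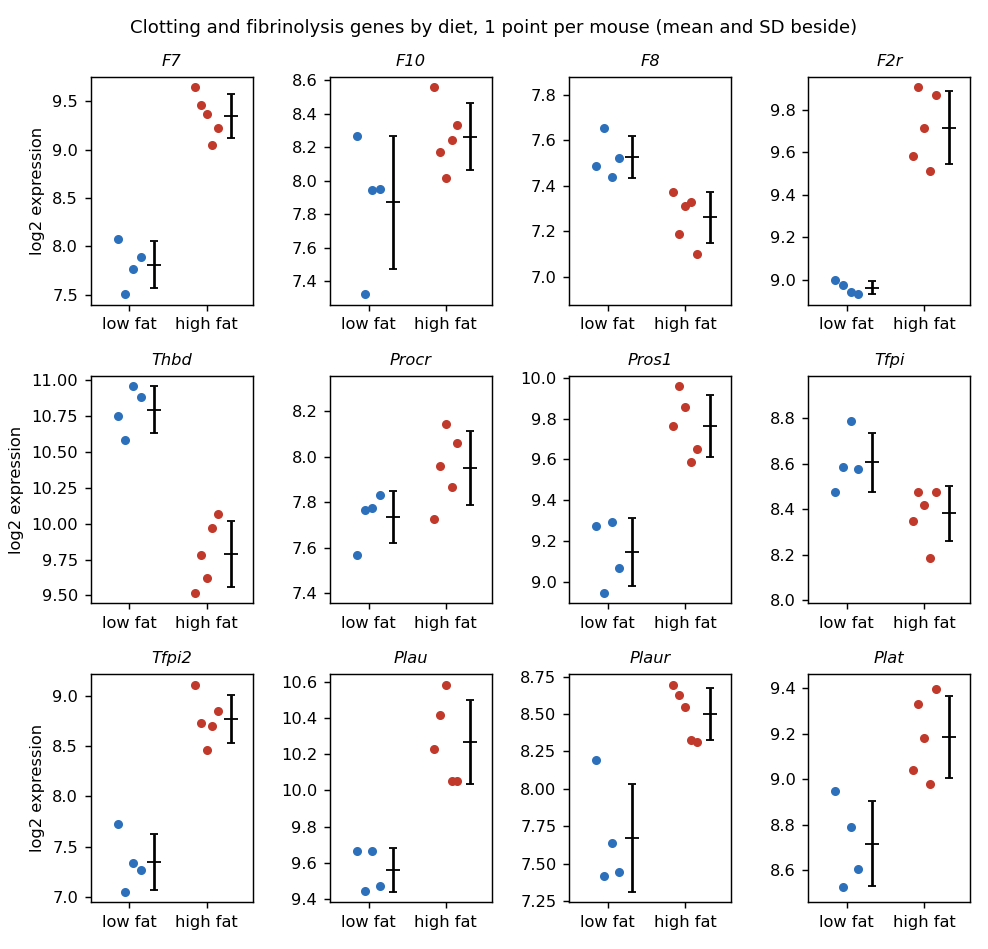
Log2 expression (y axes, each panel with its own range) of 12 clotting and fibrinolysis genes in low fat (blue) and high fat (red) mice, 1 point per mouse, with the group mean and SD as a bar beside the points. F7, F2r, Pros1, Tfpi2, Plau, Plaur and Plat are higher in high fat mice without overlap, Thbd and F8 lower, and F10, Procr and Tfpi overlap or meet.

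Both thrombin receptors measured among the members passed the test. Outside the members, the related receptor gene F2rl3 differed by 0.18 with overlapping groups and did not pass (limma adjusted p = 0.266). F2r, which encodes the protease-activated receptor PAR1, was at 9.58, 9.91, 9.71, 9.51 and 9.87 in high fat mice 1 to 5 and at 8.999, 8.97, 8.94 and 8.93 in low fat mice 1 to 4. The low fat mice lay between 8.93 and 8.999 and all high fat mice above them, and F2r rose 1.69-fold (log2 difference 0.76 ± 0.081 SE, limma adjusted p = 0.000209). F2rl2, which encodes PAR3, was at 7.08, 7.06, 7.18, 6.98 and 7.02 in high fat mice 1 to 5 and at 6.72, 6.63, 7.07 and 6.72 in low fat mice 1 to 4. It was 1.21-fold higher (limma adjusted p = 0.041) with overlapping groups, since low fat mouse 3 lay among the high fat mice, and the call was lost in 13 of 17 alternatives (adjusted p up to 0.144), including without any 1 mouse other than low fat mouse 3.

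The anticoagulant genes did not move together. Thbd, which encodes thrombomodulin, the endothelial receptor that turns thrombin towards activation of protein C, fell the most of all members. Thbd was at 9.52, 9.78, 9.62, 9.97 and 10.07 in high fat mice 1 to 5 and at 10.75, 10.58, 10.96 and 10.88 in low fat mice 1 to 4. Every high fat mouse was below every low fat mouse, with 10.07 as the highest value in high fat and 10.58 as the lowest in low fat diet. The fall was 2.00-fold (95% interval of the log2 difference -1.27 to -0.73, limma adjusted p = 0.000349), and the log2 difference lay between -1.07 and -0.91 in 18 alternatives.

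Procr, the endothelial protein C receptor gene, whose product acts beside thrombomodulin, was at 7.73, 7.96, 8.14, 7.87 and 8.06 in high fat mice 1 to 5 and at 7.57, 7.77, 7.78 and 7.83 in low fat mice 1 to 4. Its difference of 0.21 ± 0.087 (SE, 95% interval 0.02 to 0.41) missed the threshold (limma adjusted p = 0.116), and it passed without high fat mouse 1 (adjusted p = 0.0389). The log2 ratio of Procr to Thbd shifted by 1.22 (-2.10 to -1.48 in high fat mice against -3.18 to -2.81 in low fat mice, two-sided exact permutation p = 0.0159, adjusted p = 0.0223 over 7 pairs). Pros1, the gene of protein S, a cofactor of activated protein C that also bridges dying cells to phagocyte receptors, was at 9.76, 9.96, 9.85, 9.59 and 9.65 in high fat mice 1 to 5 and at 9.27, 8.95, 9.29 and 9.07 in low fat mice 1 to 4. It rose 1.53-fold without overlap (log2 difference 0.62 ± 0.094 SE, limma adjusted p = 0.0013).

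The tissue factor pathway inhibitor genes differed from each other. Tfpi2, a Kunitz-type inhibitor of plasmin and other matrix-associated proteases, was at 9.12, 8.74, 8.47, 8.70 and 8.85 in high fat mice 1 to 5 and at 7.72, 7.05, 7.33 and 7.26 in low fat mice 1 to 4. The lowest high fat mouse (8.47) lay above the highest low fat mouse (7.72), and Tfpi2 rose 2.70-fold (log2 difference 1.43 ± 0.15 SE, limma adjusted p = 0.000184). Tfpi, the inhibitor of tissue factor with factor VII and of factor X, was at 8.35, 8.48, 8.42, 8.19 and 8.48 in high fat mice 1 to 5 and at 8.48, 8.58, 8.79 and 8.58 in low fat mice 1 to 4. Its difference of -0.22 ± 0.077 (SE, 95% interval -0.40 to -0.052) missed the threshold (limma adjusted p = 0.0663), though it passed with quantile normalization repeated (adjusted p = 0.0345) and with arrays centred on their medians (adjusted p = 0.0336). It passed as well with dim genes left out (adjusted p = 0.0432) and without low fat mouse 1 (adjusted p = 0.0483). The log2 ratio of Tfpi2 to Tfpi shifted by 1.66 (two-sided exact permutation p = 0.0159, adjusted p = 0.0223 over 7 pairs).

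All 3 fibrinolysis genes measured among the members rose, each without overlap of the groups. Outside the members, 8 more fibrinolysis genes were measured. Of these 1 rose, where 12.4% of all genes did, and 7 did not pass. Plau, which encodes urokinase, the plasminogen activator of migrating cells, was at 10.23, 10.42, 10.58, 10.05 and 10.05 in high fat mice 1 to 5 and at 9.66, 9.44, 9.67 and 9.47 in low fat mice 1 to 4. It rose 1.63-fold (log2 difference 0.70 ± 0.11 SE, limma adjusted p = 0.00176). Plaur, which encodes the urokinase receptor, was at 8.70, 8.62, 8.55, 8.33 and 8.31 in high fat mice 1 to 5 and at 8.19, 7.41, 7.64 and 7.45 in low fat mice 1 to 4. It rose 1.78-fold (log2 difference 0.83 ± 0.16 SE, limma adjusted p = 0.00398), with low fat mouse 1 close under the lowest high fat mice. Plat, the gene of the tissue plasminogen activator, was at 9.04, 9.33, 9.18, 8.98 and 9.40 in high fat mice 1 to 5 and at 8.95, 8.53, 8.79 and 8.61 in low fat mice 1 to 4. It rose 1.38-fold (log2 difference 0.47 ± 0.11 SE, limma adjusted p = 0.0121). The Plau to Plat ratio moved by 0.24 with overlapping ranges (two-sided exact permutation p = 0.175, adjusted p = 0.175 over 7 pairs), 0.65 to 1.40 in high fat mice and 0.72 to 0.92 in low fat mice.

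**Figure D5:**
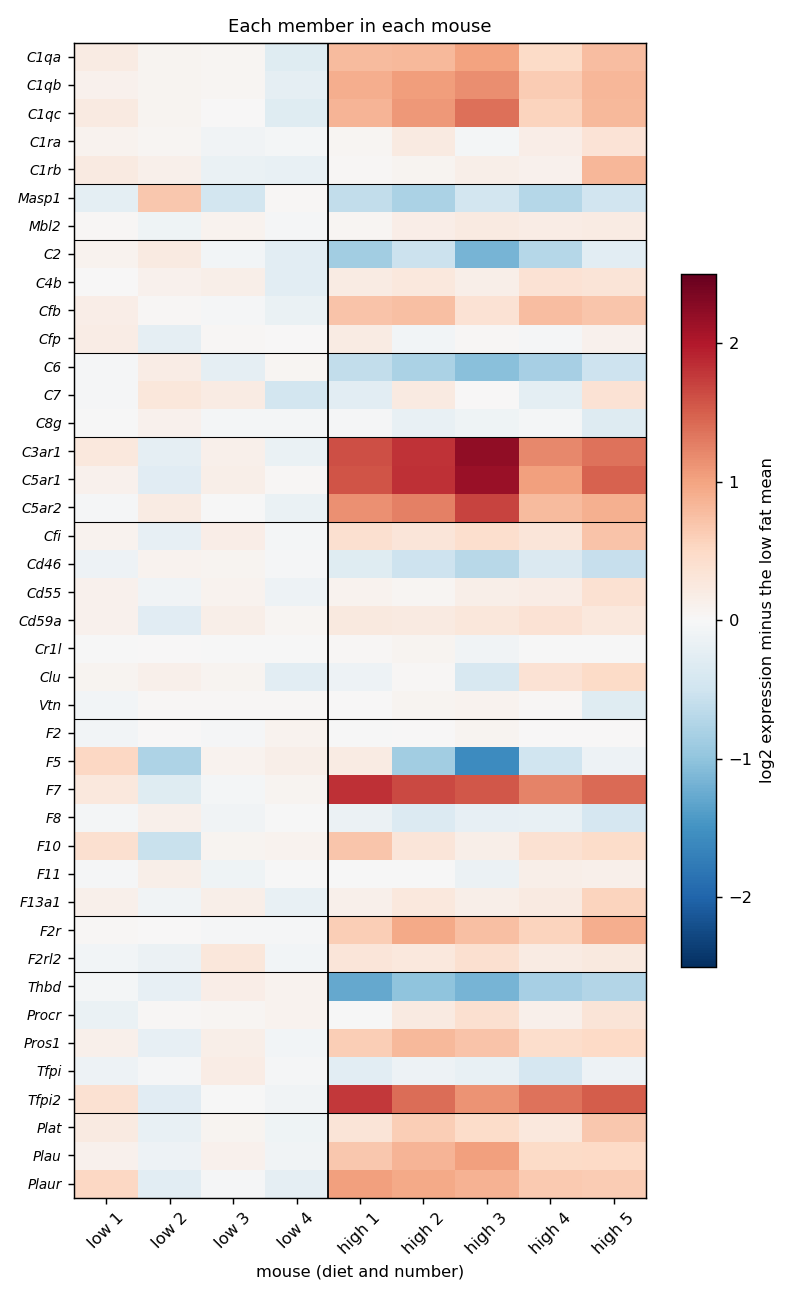
Each measured member (rows, ordered and ruled by role) in each mouse (columns), coloured by its log2 expression minus its mean over the low fat mice. Among the high fat mice, mouse 3 has the deepest red for C1qa, C1qb, C1qc, C3ar1, C5ar1 and C5ar2 and the deepest blue for C2, C6, Cd46 and F5.

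High fat mouse 3 stood at an end of its group in members of both directions. It was highest for C1qa, C1qb, C1qc, C3ar1, C5ar1, C5ar2 and Plau and lowest for C2, C6, Cd46, Cfb, Tfpi2 and F5, among others. The order differed in other members: high fat mouse 1 was highest for F7, F10, Tfpi2 and Plaur and lowest for Thbd, and high fat mouse 5 was highest for Thbd, C2 and C6. Of the 24 members that passed, 17 kept their call in every alternative run, and none of the 24 changed direction.

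Of 57 other genes of these cascades, 49 were measured, and 9 rose and 0 fell by limma over all genes (15 higher and 2 lower at an unadjusted p under 0.05), where 12.4% of all genes rose and 9.13% fell. Itgb2, the beta chain of the integrins that bind cleaved C3, rose 2.13-fold (log2 difference 1.09, limma adjusted p = 0.000388), and Tbxas1, the thromboxane synthase gene, 1.88-fold. Serping1, which encodes the C1 inhibitor, rose 1.46-fold (12.9 ± 0.17 against 12.4 ± 0.21, SD, n = 5 and 4), and Anxa2, an annexin that binds plasminogen and its activator at the cell surface, 1.46-fold. Cd93, a relative of thrombomodulin, rose 1.45-fold and the scavenger collectin gene Colec12 1.45-fold. The remaining ones that rose were Itgam (0.51), Vwf (0.39) and Vkorc1 (0.17), in log2 differences. Itgam was no longer called in 11 of 18 alternatives, including without any 1 mouse other than high fat mouse 4 or low fat mouse 1 (without low fat mouse 2, 0.35, limma adjusted p = 0.0811). Vkorc1 was no longer called in 8 of 18 alternatives, among them quantile normalization repeated (adjusted p = 0.0982), centring (adjusted p = 0.0861) and leaving out high fat mouse 2, high fat mouse 3, low fat mouse 1 or low fat mouse 4. F3, the tissue factor gene, differed by -0.46 and missed the threshold (limma adjusted p = 0.0551). The median difference of the 49 genes was 0.071. The fibrinogen genes Fga, Fgb and Fgg lay at 4.76 to 5.54, under the olfactory receptor level of 6.30.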

How the data were processed

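The authors deposited log2 expression values per probe set for 9 arrays, 1 per mouse. RMA, limma and R 3.5.0 are named, without a role, per the submitters' processing notes. RMA corrects background, quantile-normalizes and summarises probes, so values are relative between arrays and small folds depend on scaling. For the software behind RMA and for any filter, the sources used here give nothing. Without detection calls, the olfactory receptor level, chosen after values were seen, only describes dim probes. The 9 arrays limit the precision.

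Of 33793 rows, 23521 carry 1 gene symbol, and the brightest probe set per symbol left 22180 genes. All 41 measured members matched GRCm38.p6 RefSeq names by Entrez identifier. limma 3.58.1 (lmFit, eBayes, R 4.3.3) fitted diet without covariates, with Benjamini-Hochberg adjustment over all genes, after a check on simulated data. Single ratios were compared by two-sided exact permutation over 126 assignments, for 7 pairs chosen after their values were seen. Every member is named, and other cascade genes by the largest called differences (6 in each direction). Itgam, Vwf, Vkorc1, F3 and fibrinogen genes were named after their values were seen. The members, lists and roles were chosen with earlier results of these data known.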

Additional observations from a re-analysis of the deposited data

Results flagged for a closer look

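With 41 members in groups of 4 and 5 mice, 82 groups were examined for a mouse far from the others, and chance flags about 1 in 20. Low fat mouse 4 was low for C1qb (11.4, others 11.7) and for Clu (8.75, others 9.08 to 9.14). High fat mouse 5 was high for C1rb (7.52, others 6.73 to 6.83) and low for Vtn (8.62, others 8.93 to 9.003). High fat mouse 3 was low for Cfb (10.5, others 10.9), and low fat mouse 1 was low for Vtn (8.85, others 8.94 to 8.95).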

How the results depend on the processing

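Without high fat mice 1 and 2, 3 members fell (C2, F8 and Masp1 were lost). A log2 difference of at least 0.5 left 1566 genes in all, with 13 members higher and 4 lower, since it only adds a condition. Leaving out each mouse in turn gave 15 to 19 members higher, 5 or 6 lower and 3759 to 4364 genes in all. Of the other cascade genes, 2 fell with quantile normalization repeated or arrays centred on medians, 1 with dim genes left out, with a trended robust variance or without high fat mice 1 and 2, and 0 or 1 when 1 mouse was left out; the cause was not tested.

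Members that did not pass and turned in direction were Cfp (-0.0248 to 0.11 leaving out 1 mouse), C7 (-0.0262 with quantile normalization repeated, -0.0314 with centring, -0.0731 with the replicate block, -0.14 to 0.11 leaving out 1 mouse), Cr1l (-0.042 with quantile normalization repeated, -0.0437 with centring, -0.0337 without high fat mice 1 and 2, -0.0161 to 0.022 leaving out 1 mouse), Clu (-0.0339 with the replicate block, -0.0339 to 0.19 leaving out 1 mouse), Vtn (0.0453 with the replicate block, -0.0504 to 0.0453 leaving out 1 mouse), F2 (-0.0254 with centring, -0.0011 to 0.0465 leaving out 1 mouse) and F11 (-0.0299 with centring, -0.0138 with the replicate block, -0.0198 to 0.0661 leaving out 1 mouse). The cause was not tested.

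Mouse numbers are shared between diets, but no label pairs the mice. Correlations of same-numbered deviations were 0.048 to 0.126, and 1 of 4 numbers matched best with itself. With the mouse number as a replicate block, 4036 genes were called, 16 members rose and 4 fell, and 9 other cascade genes rose and 0 fell. Masp1, Mbl2, F8 and Plat lost their call under the block (Plat adjusted p = 0.0503). Without detection calls, whether the values of F2, F11, Mbl2 and Cfi and the high fat values of Masp1 exceed background was not determined. Of the 24 members called, 17 kept their call in every alternative run.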
